A study of Mus musculus with 11 samples.

Results

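The genes that bring proteins into mitochondria and fold or degrade them in the matrix were followed in mouse muscle after induction of the transcription factor Myc. Members were every gene whose symbol begins with Timm or Tomm and a digit, and 16 genes named singly: Hspd1, Hspe1, Hspa9, Trap1, Grpel1, Grpel2, Dnaja3, Dnajc19, Pmpca, Pmpcb, Samm50, Clpp, Clpx, Lonp1, Chchd4 and Gfer. This gave 40 members among 13359 genes listed in soleus or quadriceps, 24 of them Timm or Tomm genes. Tomm6os was listed in soleus only, so 39 members were measured in both muscles, and all 40 passed the filter on low values. The symbol rule also takes in Tomm34, a cytosolic co-chaperone, and Tomm6os, an RNA antisense to Tomm6.

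RNA was sequenced from soleus, a slow postural muscle of the lower hindlimb, and from quadriceps, a mostly fast thigh muscle, of mice aged 2.5 months. Soleus had 4 Myc libraries and 3 control libraries, and quadriceps had 2 Myc and 2 control libraries. The Myc animals received doxycycline overnight to induce Myc and were sampled 12 hours after its removal, and the controls were of the same age. The labels do not give the controls' genotype or whether they had doxycycline, the promoter that drives the inducible system, or whether each library came from a separate animal, so p-values measure the spread between these libraries.

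Estimated depth was 11.1 to 14.9 M reads in soleus and 14.2 to 18.4 M in quadriceps. The Myc gene itself did not identify the induced libraries: it averaged 28.4 ± 1.98 normalised reads in Myc-labelled soleus and 37.5 ± 14.6 in control soleus (SD, n = 4 and n = 3), and the directions below rest on the labels. Muscle markers matched the tissue labels in soleus, where the 10 slow-fibre genes summed to 504670 or more in every library, and in quadriceps, where the 10 fast-fibre genes summed to 1858309 or more. The slow-fibre sum in quadriceps was 1986 and 3525 in Myc-labelled libraries, against 26329 and 191046 in controls. Of the 10 genes 0 were called, but only 1 of all 12270 genes was called there. Their median log2 change was −4.77, and 6 were lower at an unadjusted limma p under 0.05. Without overlap 8 lay lower, against 16.9% of all genes. For the difference between muscles, 8 had an unadjusted limma p under 0.05, against 3.18% of all genes. Soleus Myc replicates 3 and 4 stood apart in 8 tendon genes, which summed to 2156 and 3462 there, against 7289 and 6467 in Myc replicates 1 and 2 and 7415 to 9024 in controls. Their 8 fibroblast genes were also low, at 5908 and 8819, against 18164 and 18373 in Myc replicates 1 and 2 and 14347 to 21758 in controls. No tendon or fibroblast gene of the 16 was called. Of the 8 tendon genes in soleus, 1 had a positive change, and the median log2 change was −1.08. At an unadjusted limma p under 0.05, 4 were lower, and 4 lay lower without overlap, against 8.35% of all genes. Of the 8 fibroblast genes 0 were positive (median −0.47). The tendon sums of Myc replicates 1 and 2 also lay below every control. In quadriceps these sums were 272.5 and 3493 with Myc, and 3902 and 1372 in controls. Counts are given with and without soleus Myc replicates 3 and 4. The 10 fast-fibre genes summed to 426341 to 685597 in Myc-labelled soleus and to 652342 to 687119 in controls, and the myosin light chain gene Mylpf was the 1 called (log2 change −0.47, limma adjusted p = 0.010). No erythroid, adipocyte, macrophage, Schwann, endothelial or satellite cell marker was called in either muscle, but in quadriceps almost no gene was. In soleus, 0 of 5 erythroid, 0 of 6 adipocyte, 0 of 6 macrophage and 0 of 5 endothelial genes had a positive change. Positive changes were found for 6 of 6 Schwann genes (median 0.37) and 2 of 5 satellite cell genes, against 45.6% of all genes. The lack of calls thus does not show an unchanged cell mix. The part of these differences in the results was not tested. In whole muscle, fewer cells of a type and less RNA per cell cannot be told apart.

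Nearly all mitochondrial proteins are made in the cytosol and enter the organelle through the TOM complex of the outer membrane. Precursors with a cleavable presequence pass on through the TIM23 complex and are pulled into the matrix by the mitochondrial Hsp70 motor, while carrier proteins are guided across the intermembrane space by small TIM chaperones to the TIM22 complex. Small cysteine-rich proteins, the small TIMs among them, are trapped in the intermembrane space by the oxidoreductase Chchd4 and its partner Gfer. In the matrix, presequences are cut off and the Hsp60 and Hsp10 chaperonin folds incoming proteins. Muscle fibres are rich in mitochondria and depend on this route for their respiratory chain.

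In Myc-labelled soleus, some genes of the outer-membrane entry gate, the intermembrane space and the matrix chaperones were called higher. No gene of the inner-membrane translocases passed the test, but a difference between these steps was not tested. Of the 40 members, 13 were higher (32.5%) and 0 lower at a limma adjusted p under 0.05, against 7.06% of all 12745 genes higher, 2.23% lower and 9.29% in either direction. At an unadjusted limma p under 0.05, 19 members were higher and 0 lower, against 12.9% of all genes higher and 21.7% in either direction. The TOM complex gave 5 of 8 members, the small TIMs 3 of 6 and the oxidative pathway of the intermembrane space both of its 2. Matrix chaperones gave 3, Hspd1, Hspa9 and Dnaja3, out of 7. With Hspa9 counted among the matrix chaperones, none of the 7 genes of the TIM23 translocase, the 2 of TIM22, the 2 of the presequence protease or the 3 matrix proteases passed. Timm44 and Timm50, 2 of the 7 TIM23 genes, were higher at an unadjusted limma p under 0.05.

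The median log2 change (log2 of value + 1, Myc minus control) of the 40 members was 0.26, and that of all genes tested was −0.03. A positive change was found in 33 of 40 members, and in 45.6% of all genes. With columns rescaled to equal totals, 37 of 40 were positive. All Myc-labelled libraries lay above all controls for 17 members, where 12.7% of all genes did so, and below for 0 members, against 8.35%. Summed over members, the set made up 0.483% to 0.510% of the table in Myc-labelled soleus and 0.368% to 0.404% in controls, which did not overlap. Without Myc replicates 3 and 4 the median was 0.19, against −0.01 for all genes. In that fit 8 of 40 members were called higher, and 483 of all 12745 genes.

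**Figure D1:**
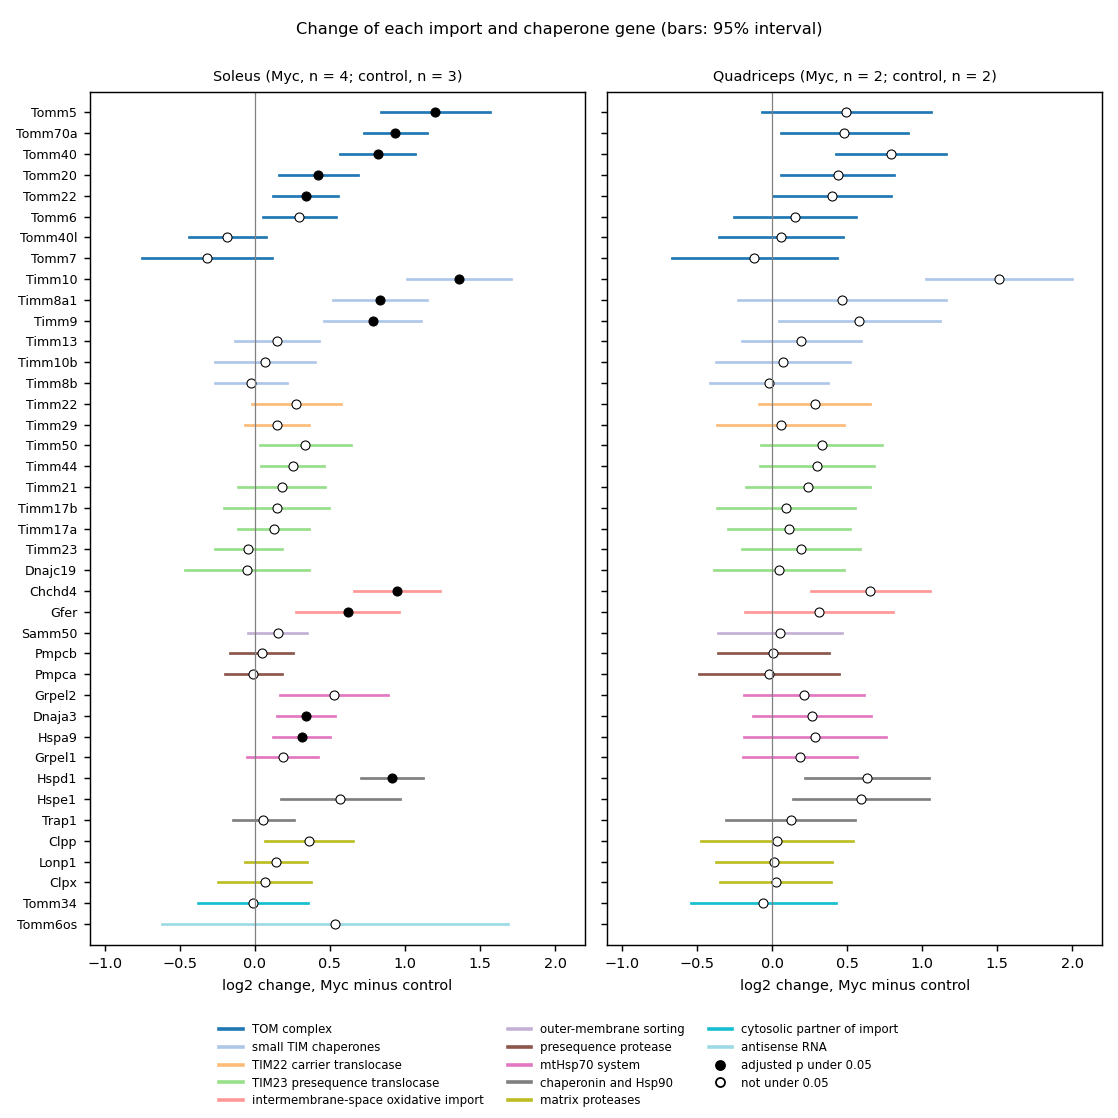
Log2 change of each member, Myc minus control, in soleus (n = 4 and 3) and quadriceps (n = 2 and 2), grouped by step of the import route; points are limma estimates, bars their 95% intervals, and filled points mark adjusted p under 0.05. Timm10 is the farthest to the right in both muscles, at 1.36 in soleus and 1.51 in quadriceps, and the TIM23 genes lie between −0.05 and 0.33 in soleus.

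Myc binds, with its partner Max, the sequence CACGTG, which reads the same on both strands. This motif was searched for in the promoter windows of RefSeq (build GRCm38.p6), from 250 bases before to 50 after each start site. The rule for members did not use the motif. Members were chosen with earlier results of these data known, however, so the counts are not an independent check. A window was matched for 35 of 40 members, and Grpel2, Hspa9, Timm21, Tomm40l and Tomm7 had no entry. The motif was present in 5 of 12 members called in soleus (41.7%) and in 2 of 23 not called (8.70%), Lonp1 and Tomm6os. Among all tested genes with an entry it was present in 1213 of 10139 (12.0%), and among all genes called higher in 146 of 743 (19.7%). The related letters CACGCG or CGCGTG were present in 4 of 12 called members, in 11 of 23 not called and in 20.1% of all tested genes. These counts describe letters in a window, not binding.

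The 3 small TIM genes that rose all had the motif, and the 3 that did not pass (Timm13, Timm8b and Timm10b) had none in their windows. Outside this family, the called members Chchd4, Dnaja3, Gfer, Tomm22, Tomm40, Tomm5 and Tomm70a had none either. The stretches below show the motif in capitals for the 5 called members, read 5′ to 3′ on the gene's strand. Timm9 (chr12:71136656-71136795, minus strand) had it at base −58 and again at base −1, counted from the start site. Timm10 (chr2:84827025-84827054, plus strand) had it at base 29, base 1 being the start site. Timm8a1 (chrX:134541641-134541920, minus strand) had it at bases −236 and 25. Hspd1 (chr1:55088244-55088363, minus strand) had it at base −80 and Tomm20 (chr8:126945922-126946081, minus strand) at base −126. A 2nd Hspd1 window, from another start site, had none.
Timm9: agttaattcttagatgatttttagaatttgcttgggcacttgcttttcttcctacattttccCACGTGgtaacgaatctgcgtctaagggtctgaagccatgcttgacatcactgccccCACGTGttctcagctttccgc
Timm10: ctagacttccttccggaagtgaccCACGTG
Timm8a1: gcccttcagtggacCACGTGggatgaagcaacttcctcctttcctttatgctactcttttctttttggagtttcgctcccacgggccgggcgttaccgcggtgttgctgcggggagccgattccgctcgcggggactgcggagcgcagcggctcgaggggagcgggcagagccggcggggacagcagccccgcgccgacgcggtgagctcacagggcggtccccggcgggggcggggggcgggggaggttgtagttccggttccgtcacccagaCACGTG
Hspd1: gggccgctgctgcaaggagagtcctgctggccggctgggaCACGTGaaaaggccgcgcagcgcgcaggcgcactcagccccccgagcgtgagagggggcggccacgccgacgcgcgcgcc
Tomm20: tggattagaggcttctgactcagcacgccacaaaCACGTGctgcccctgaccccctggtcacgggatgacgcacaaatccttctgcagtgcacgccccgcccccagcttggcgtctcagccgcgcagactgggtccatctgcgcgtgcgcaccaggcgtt

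Beside them stand 2 windows with no such motif, one from a small TIM gene that was not called, Timm13 (chr10:80900970-80901089, minus strand), and one from Tomm5 (chr4:45108114-45108233, minus strand), which rose without it. Both show the 120 bases before the start site. The Timm13 stretch holds the related letters CACGCG near its 5′ end, the Timm8b window holds CACGCG or CGCGTG as well, and the Tomm20 stretch above holds CGCGTG, all left in lower case. No called small TIM gene had either in its window.
Timm13: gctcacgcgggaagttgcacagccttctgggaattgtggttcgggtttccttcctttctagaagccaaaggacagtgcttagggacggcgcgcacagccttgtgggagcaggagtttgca
Tomm5: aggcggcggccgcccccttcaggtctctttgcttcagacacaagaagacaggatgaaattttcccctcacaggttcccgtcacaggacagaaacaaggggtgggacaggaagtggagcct
Hspd1 and Hspe1, the chaperonin genes, lie on opposite strands with start sites 95 or 216 bases apart, depending on the Hspd1 start site.

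Within the TOM complex, the small subunit Tomm5 changed most. It had 1291, 1215, 1296 and 1639 normalised reads in Myc-labelled soleus, against 489, 515 and 803 in controls. The groups did not overlap, although control replicate 3 was well above the other 2 controls. The log2 change was 1.20 (SE 0.17, limma adjusted p = 0.000523). Tomm70a, the receptor for carrier precursors, had 2228, 2128, 2503 and 2180 normalised reads in Myc-labelled libraries, against 1292, 1106 and 1150 in controls. Both groups were tight and far apart, with a log2 change of 0.93 (SE 0.10, limma adjusted p = 9.58e-06). Tomm40, the channel through which precursors cross, had 1209, 1344, 1576 and 1560 normalised reads with Myc and 868, 834 and 713 without. All 4 Myc-labelled libraries exceeded every control, and the log2 change was 0.82 (SE 0.12, limma adjusted p = 0.000207).

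The presequence receptors had smaller log2 changes. Tomm20, which first binds presequences, had 2311, 1852, 2157 and 2214 normalised reads in Myc-labelled soleus, against 1486, 1364 and 1969 in controls. These groups overlapped, since control replicate 3 exceeded Myc replicate 2, and the log2 change was 0.42 (SE 0.12, limma adjusted p = 0.0416). Tomm22, the receptor that organises the complex, had 1002, 1050, 1057 and 1156 normalised reads with Myc and 845, 785 and 902 without. The groups did not overlap, but the log2 change was only 0.34 (SE 0.10, limma adjusted p = 0.049), and with the replicate number as a block the limma adjusted p was 0.0903. Of the other 3 subunits, Tomm6 had a log2 change of 0.29, Tomm40l, a paralogue of Tomm40, one of −0.18, and Tomm7 one of −0.32, and none passed. The ratio of Tomm40 to Tomm40l reads was 2.00 ± 0.48 in Myc-labelled soleus and 0.978 ± 0.055 in controls (SD, n = 4 and n = 3).

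Both of those receptor calls were lost without certain single libraries. For Tomm20 the limma adjusted p was 0.156 and 0.219 without control replicates 1 and 2. It was 0.106, 0.091 and 0.118 without Myc replicates 1, 3 and 4. For Tomm22 it was 0.124 and 0.206 without control replicates 1 and 2. Without Myc replicates 1, 2, 3 and 4 it was 0.061, 0.083, 0.0792 and 0.138. With all libraries kept, the Tomm22 call was also lost with no filter (0.0504), without robust moderation (0.0567), with limma-voom (0.0517) and in 1 fit over all 11 libraries (0.0653), so it was lost in 12 of 16 alternatives. The Tomm20 call was lost in 8 of 16, among them no robust moderation (0.0589) and the 1 fit (0.0532). The Tomm5, Tomm40 and Tomm70a calls held under every alternative tried.

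**Figure D2:**
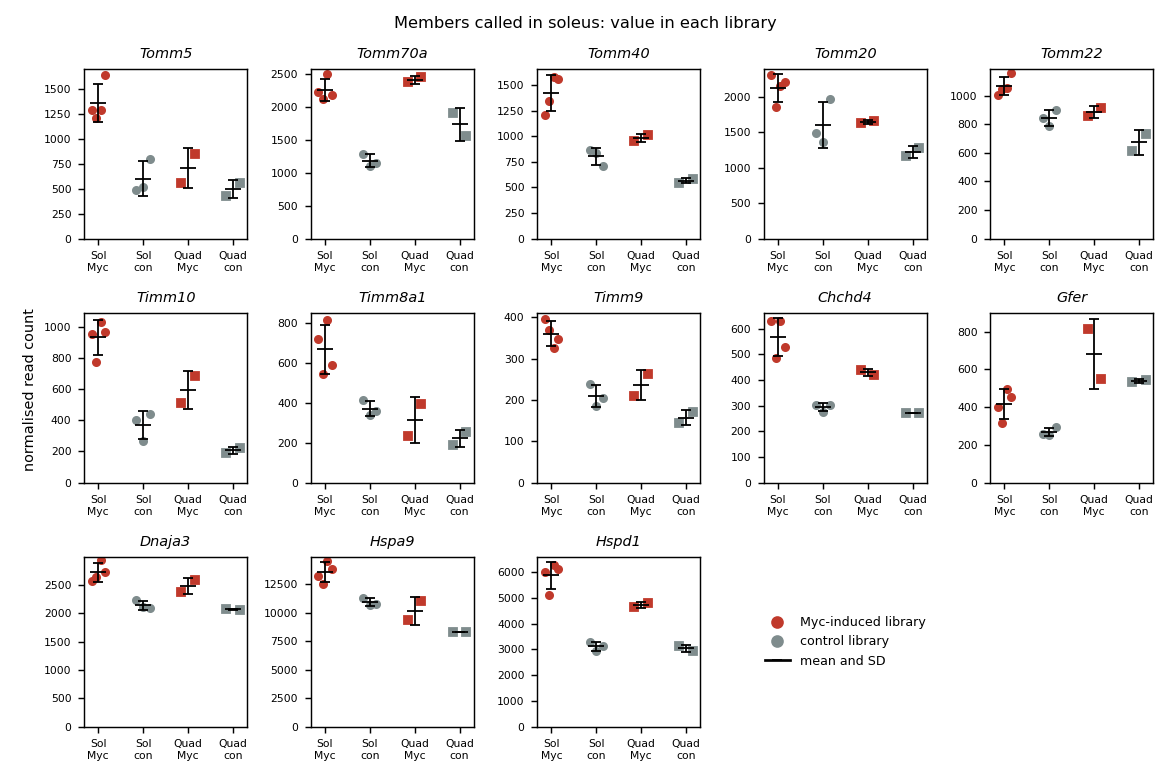
Normalised reads (linear axes from 0) of the 13 members called in soleus, in each library, with Myc-labelled libraries left of controls within each muscle; points are libraries and bars the mean and SD. Myc-labelled soleus points lie above all control points for 12 of the 13 members called in soleus, the exception being Tomm20.

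The small TIM family divided into 3 genes that rose and 3 that did not pass. Timm10, which forms a hexameric chaperone with Timm9, had 956, 774, 1035 and 970 normalised reads in Myc-labelled soleus, against 403, 267 and 438 in controls. Every Myc-labelled library was far above every control, and the log2 change of 1.36 (SE 0.16, limma adjusted p = 6.08e-05) was the largest among members. Timm9 had 397, 369, 327 and 348 normalised reads with Myc and 238, 185 and 205 without, again with no overlap (log2 change 0.78, SE 0.15, limma adjusted p = 0.00285). Timm8a1, the mouse counterpart of the gene mutated in human deafness-dystonia syndrome, had 718, 544, 816 and 591 normalised reads in Myc-labelled libraries, against 414, 340 and 358 in controls. It varied more among Myc-labelled libraries than the other small TIMs called, yet stayed above all controls (log2 change 0.83, SE 0.15, limma adjusted p = 0.00129). All 3 calls held under every alternative.

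Timm13, the known partner of Timm8a1, had a log2 change of 0.15, Timm10b, which joins the TIM22 complex, one of 0.07, and Timm8b one of −0.03. None of these passed. The ratio of Timm10 to Timm13 reads was 1.74 ± 0.38 in Myc-labelled soleus and 0.770 ± 0.259 in controls. The ratio of Timm9 to its partner Timm10 was 0.392 ± 0.070 with Myc and 0.585 ± 0.113 without (SD, n = 4 and n = 3 for each). The Timm9 to Timm10 groups overlapped, at 0.316 to 0.477 with Myc and 0.469 to 0.695 without. These ratios, and those of Tomm40 and Hspd1 to other members, were chosen after the values were seen. They compare groups and not the genes' levels, since reads are not divided by length.

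The pair that traps small TIMs in the intermembrane space rose as well. Chchd4, the oxidoreductase that forms disulfides in incoming proteins, had 631, 485, 628 and 528 normalised reads in Myc-labelled soleus, against 302, 275 and 303 in controls. The groups were well apart, with a log2 change of 0.94 (SE 0.14, limma adjusted p = 0.000201) and a call under every alternative. Gfer, the sulfhydryl oxidase that re-oxidises Chchd4, had 398, 314, 498 and 452 normalised reads with Myc and 259, 250 and 292 without. The lowest Myc-labelled library was just above the highest control, and the log2 change was 0.62 (SE 0.16, limma adjusted p = 0.0239). The Gfer call was lost without control replicate 1 or 2 (limma adjusted p = 0.0762 and 0.0993) and without Myc replicate 3 or 4 (0.0764 and 0.0808).

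At the inner membrane, no gene of TIM23 or TIM22 passed. In TIM23, Timm50, the receptor that hands presequences to the channel, had the largest log2 change, 0.33. Timm44, which tethers the Hsp70 motor, had 0.25. Their unadjusted limma p was 0.0327 and 0.0223 (limma adjusted p = 0.179 and 0.142). The called genes Tomm22 and Hspa9 had log2 changes of 0.34 and 0.31. The channel gene Timm23 had −0.04, the channel partners Timm17a and Timm17b 0.12 and 0.14, the linker Timm21 0.18 and the J-protein Dnajc19 −0.05. For carriers, Timm22, the channel, had 0.28 and its partner Timm29 had 0.15. In reads, Timm23 was at 1855, 1809, 2025 and 1932 in Myc-labelled soleus, against 1901, 1739 and 2284 in controls, so control values spanned those with Myc. The ratio of Tomm40 to Timm23 reads was 0.745 ± 0.068 with Myc and 0.416 ± 0.091 without (SD, n = 4 and n = 3). Samm50, which inserts barrel proteins into the outer membrane, had a log2 change of 0.15 and did not pass.

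Among matrix chaperones, Hspd1, the Hsp60 chaperonin, changed most. It had 6019, 5115, 6289 and 6121 normalised reads in Myc-labelled soleus, against 3289, 2939 and 3132 in controls. The groups were far apart, and the log2 change of 0.91 (SE 0.10, limma adjusted p = 9.98e-06) held under every alternative. Its co-chaperonin Hspe1 had 1360, 1163, 1303 and 1480 normalised reads with Myc and 694, 805 and 1266 without. Control replicate 3 lay among the Myc-labelled libraries, and the log2 change of 0.57 (SE 0.18) did not pass (limma adjusted p = 0.0801). Without that control it was 0.82, with a limma adjusted p of 0.000404. Trap1, the mitochondrial Hsp90, had a log2 change of 0.06.

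Hspa9, the mitochondrial Hsp70, had 13265, 12540, 14567 and 13884 normalised reads in Myc-labelled soleus, against 11326, 10673 and 10760 in controls. All Myc-labelled libraries lay above all controls by a small margin (log2 change 0.31, SE 0.09, limma adjusted p = 0.0389). Its J-protein partner Dnaja3 had 2563, 2639, 2943 and 2732 normalised reads with Myc and 2233, 2111 and 2084 without. These groups were also close but separate (log2 change 0.34, SE 0.09, limma adjusted p = 0.0251). The nucleotide exchange factor Grpel2 had a log2 change of 0.53 and did not pass (limma adjusted p = 0.0654), but did so without Myc replicate 1 or 3 (0.0321 and 0.046). Its paralogue Grpel1 had 0.18.

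The Hspa9 and Dnaja3 calls were likewise lost without certain single libraries. For Hspa9 the limma adjusted p was 0.0832, 0.16 and 0.0863 without control replicates 1, 2 and 3. It was 0.0649, 0.0632 and 0.111 without Myc replicates 1, 3 and 4, and 0.0691 in 1 fit over all 11 libraries. For Dnaja3 it was 0.0522, 0.103 and 0.0667 without control replicates 1, 2 and 3, and 0.0562 and 0.0671 without Myc replicates 3 and 4. The ratio of Hspd1 to Hspa9 reads was 0.434 ± 0.019 in Myc-labelled soleus and 0.286 ± 0.0089 in controls (SD, n = 4 and n = 3). It sets a larger change over a smaller one, so its separation follows from the values above. Of other ratios computed, Hspd1 to Hspe1, Grpel2 to Grpel1, Timm17a to Timm17b and Clpp to Clpx overlapped between soleus groups. Timm8a1 to Timm13, Timm10 to Timm10b, Tomm70a to Tomm20 and Chchd4 to Gfer did not. Chchd4 to Gfer nearly touched, with a lowest ratio of 1.1691 with Myc and a highest of 1.1683 without. So did Timm8a1 to Timm13, at 0.926 and 0.912.

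The genes that process or degrade imported proteins did not pass. Pmpca and Pmpcb, which cut off presequences, had log2 changes of −0.01 and 0.04. Of the proteases, Lonp1 had 0.14, Clpp 0.36 and Clpx, the unfoldase that feeds Clpp, 0.06. Clpp nonetheless had 367, 380, 378 and 430 normalised reads in Myc-labelled soleus, against 284, 339 and 286 in controls, with no overlap. Tomm34 had −0.01 and the antisense RNA Tomm6os 0.53, which was listed at 11.5 to 36.8 normalised reads with Myc and 12.4 to 17.5 without.

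Reads from genes that overlap on opposite strands cannot be told apart without strand, which the labels do not state. For genes that overlap on the same strand, strand would not separate them either. In GENCODE M21, exons of Tomm70a overlap those of Nit2, exons of Dnaja3 those of Coro7 and Vasn, and Hspd1 exons those of Hspe1. Of these, Vasn alone lies on the same strand as the member. Nit2 averaged 237 normalised reads in Myc-labelled soleus and 192 in controls. Coro7 averaged 127 with Myc and 149 without, and Vasn 92.4 with Myc and 89.7 without. Nit2, Coro7 and Vasn were small beside the member they overlap. Hspe1, itself a member, was less so: it averaged 1326 with Myc and 922 without, beside 5886 and 3120 for Hspd1. Tomm40 overlaps Gm20512, and Timm9 overlaps Tomm20l, neither of them listed in soleus.

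Other genes of the route were counted from lists of the same pathway, to be read against the 7.06% of all genes called higher. Of 21 further import and membrane insertion genes, 2 were called higher in soleus: Dnajc11, a J-protein of the outer membrane bridge (log2 change 0.65, limma adjusted p = 0.00219), and Bcs1l, which inserts the Rieske protein into complex III (0.58, limma adjusted p = 0.0251). That share was near the background, and their median change was 0.06. Of 10 inner-membrane proteases and prohibitins, the ring-forming scaffold genes Phb (0.49, limma adjusted p = 0.00755) and Phb2 (0.48, limma adjusted p = 0.00344) rose and the median was 0.19. Of 8 stress regulators tested, the heat-shock factor Hsf1 alone was called (0.43, limma adjusted p = 0.0152). Atf4 and Atf5, regulators of the mitochondrial stress response, had log2 changes of 0.09 and 0.14, and Ddit3 had −0.57. None of 18 genes of general mitochondrial content, among them Cs, Cox4i1 and Sdha, was called in either direction. Their median was −0.09, with 1 of 18 positive, and that 1 was the porin gene Vdac2.

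Per kilobase of transcript, the members spanned a wide range of levels in soleus. Hspa9 was highest in both groups, at 4449 ± 284 normalised reads per kb in Myc-labelled soleus and 3581 ± 116 in controls. Hspd1 ranked 2nd in Myc-labelled soleus (2429 ± 217 per kb) and 4th in controls (1288 ± 72.2 per kb). Tomm5 ranked 3rd with Myc (2129 ± 296 per kb) and 7th in controls (942 ± 273 per kb). With Myc, it lay below Hspd1 by slightly more than the SD of either gene. In controls ranks 2 and 3 belonged to Timm23 (1684 ± 239 per kb) and Timm8b (1606 ± 94.1 per kb), which did not differ beyond their spread. Timm10 ranked 7th in Myc-labelled soleus at 1353 ± 162 per kb, and 17th in controls at 535 ± 131 per kb. Among protein-coding members the lowest levels in controls were those of Chchd4 (84.4 ± 4.66 per kb), Timm10b (83.6 ± 4.07 per kb) and Grpel2 (82.9 ± 2.01 per kb), which also lay within each other's spread (SD, n = 4 with Myc and n = 3 without).

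**Figure D3:**
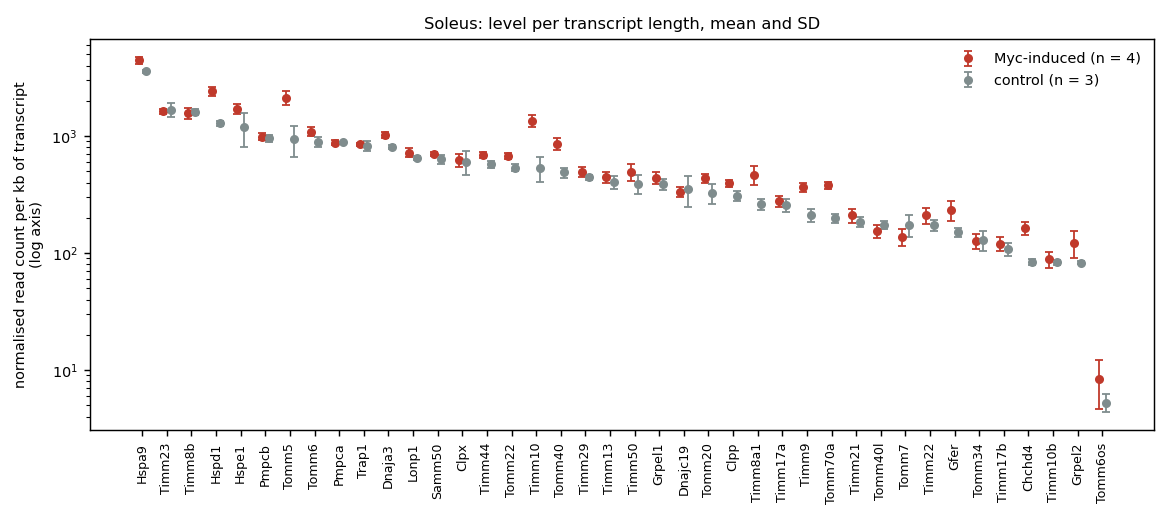
Mean level of each member in soleus, in normalised reads per kb of GENCODE M21 transcript (log axis), Myc-labelled and control, with SD bars (n = 4 and 3). Hspa9 tops both groups and Timm10, Tomm5 and Hspd1 sit well above their control points.

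In quadriceps, with 2 libraries per group, the same question was asked with far less power. No member was called at a limma adjusted p under 0.05, and 1 of all 12270 genes was (0.00815%). At an unadjusted limma p under 0.05, 9 of 39 members were higher and 0 lower, against 3.97% of all genes higher and 6.21% in either direction. A positive change was found in 35 of 39 members, against 45.8% of all genes, and the median log2 change was 0.20, against −0.03. Both Myc-labelled libraries lay above both controls for 21 members, where 18.3% of all genes did so, and below for 0 members, against 16.9%. The members' share of the table was 0.339% and 0.398% in Myc-labelled quadriceps and 0.286% and 0.307% in controls.

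Timm10 again showed the largest change. It had 509 and 683 normalised reads in Myc-labelled quadriceps, against 190 and 223 in controls, and the groups were far apart. The log2 change was 1.51 (SE 0.21, limma adjusted p = 0.195). It was 1.725 without Myc replicate 1, 1.302 without Myc replicate 2, and 1.4 and 1.626 without control replicates 1 and 2. Each of these fits leaves 1 library in a group, so no p-value is given for them. With the replicate number as a block the limma adjusted p was 0.0531. Tomm40 had 950 and 1009 normalised reads with Myc and 547 and 584 without, also with no overlap (log2 change 0.79, SE 0.16, limma adjusted p = 0.337). Chchd4 had 438 and 419 normalised reads in Myc-labelled libraries, against 272 and 273 in controls. Replicates agreed closely in both groups, with a log2 change of 0.65 (SE 0.17, limma adjusted p = 0.465).

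The chaperonin genes gave similar values in quadriceps. Hspd1 had 4642 and 4798 normalised reads in Myc-labelled libraries, against 3138 and 2950 in controls (log2 change 0.63, SE 0.18, limma adjusted p = 0.542). Hspe1 had 1094 and 1098 normalised reads with Myc and 620 and 855 without (log2 change 0.59, SE 0.19, limma adjusted p = 0.624). Neither pair of groups overlapped, and the controls of Hspe1 were the more spread. Tomm20 had 1630 and 1667 normalised reads in Myc-labelled quadriceps, against 1160 and 1277 in controls, without overlap (log2 change 0.44, SE 0.16, limma adjusted p = 0.705). In 1 fit over all 11 libraries, which shares the spread between muscles, Timm10, Tomm40 and Hspd1 were called (limma adjusted p = 0.00794, 0.0327 and 0.0391), against 0.643% of all genes higher in that fit.

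All 13 members called in soleus had a positive change in quadriceps, and 12 of them had no overlap between groups there. Over all genes tested in quadriceps, 45.8% were positive and 18.3% lay higher without overlap. Among the 883 other genes called higher in soleus, 856 were positive in quadriceps (96.9%) and 666 lay higher without overlap (75.4%). The members thus did as most soleus-called genes did. The exception was Timm8a1, with 231 and 395 normalised reads in Myc-labelled quadriceps, against 190 and 252 in controls. Gfer had 812 and 551 normalised reads with Myc and 531 and 546 without, so its change rested on Myc replicate 1. Timm9 had 210 and 263 normalised reads with Myc and 144 and 170 without. Tomm22 had 857 and 913 with Myc and 612 and 735 without. In both genes every Myc-labelled library exceeded the controls. Dnaja3 had 2382 and 2584 normalised reads with Myc and 2074 and 2061 without. Hspa9 had 9328 and 11060 with Myc and 8310 and 8329 without, its Myc-labelled libraries being the farther apart. Positive changes were also found for all 7 TIM23 genes, from 0.05 for Dnajc19 to 0.33 for Timm50, none of which passed. None of the further import, prohibitin, stress or mitochondrial content genes was called in quadriceps. The 18 content genes had a median of −0.04, with 5 of 18 positive.

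The Myc effect was compared between the muscles by its difference, soleus minus quadriceps, over all 11 libraries. No member differed at a limma adjusted p under 0.05, and neither did any of the 11971 genes tested (0.0%). An unadjusted limma p under 0.05 was found for 2 of 39 members and for 3.18% of all genes. These 2 were Tomm70a, with a difference of 0.45 (95% interval 0.08 to 0.83), and Tomm5, with 0.71 (0.01 to 1.40). Tomm70a had 2375 and 2453 normalised reads in Myc-labelled quadriceps, against 1915 and 1560 in controls, a narrower gap than in soleus. Tomm5 had 564 and 847 there with Myc and 431 and 559 without, nearly touching. Hspd1 had a difference of 0.28 (−0.07 to 0.63) and Chchd4 one of 0.29 (−0.16 to 0.74). The limma adjusted p was 0.999 for all 4. A positive difference was found in 23 of 39 members, against 54.2% of all genes. The members' median difference was 0.02, against 0.03 for all genes, and Timm10 and Tomm40 had differences of −0.15 and 0.03. These intervals are wide, so equal effects in both muscles are not shown either.

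**Figure D4:**
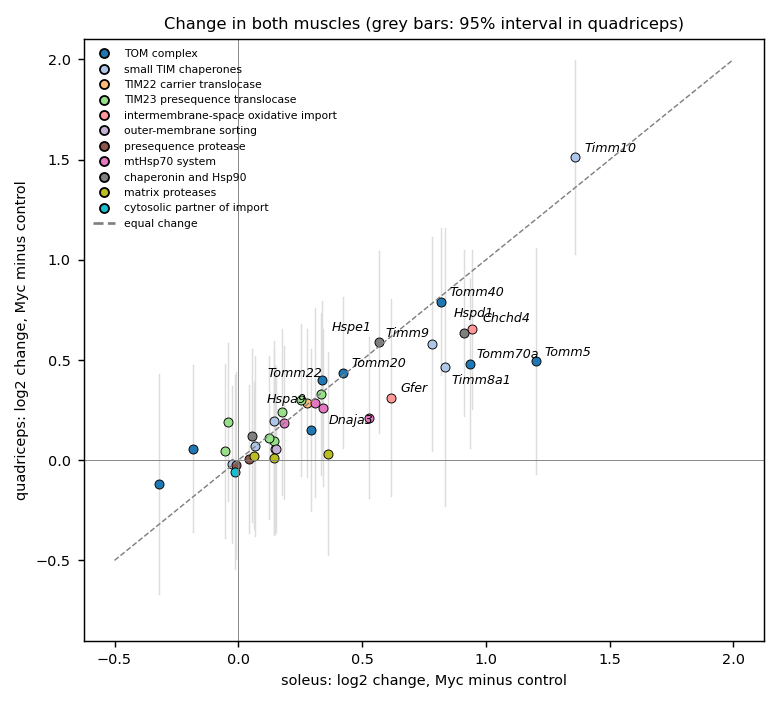
Log2 change of each of 39 members, Myc minus control, in soleus (horizontal) and quadriceps (vertical), coloured by step of the route, with 95% intervals for quadriceps as grey bars and a dashed line of equal change. Timm10 stands alone at the upper right, and Tomm5 and Tomm70a lie below the line, with differences of 0.71 and 0.45.

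Levels in the controls of the muscles are given side by side only, since each table was scaled on its own. Per kb, Hspa9 was highest in control quadriceps too (2729 ± 4.29, n = 2), followed by Timm8b (1780 ± 217) and Timm23 (1549 ± 2.11). The gap between Timm8b and Timm23 was larger than the SD of either gene in these 2 libraries. Hspd1 ranked 2nd with Myc (1948 ± 45.5 per kb) and 4th without (1256 ± 54.9 per kb), the same ranks as in soleus. Timm10 ranked 11th in Myc-labelled quadriceps (864 ± 178 per kb) and 25th in controls (299 ± 33.2 per kb).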

How the data were processed

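Total RNA of soleus (7 libraries) and quadriceps (4) was sequenced. Each deposited value is a signal that the authors had normalised: a gene's estimated reads over the library's size factor, as read from the values. The submitters' processing notes name STAR 2.7.8a, DESeq2 and Partek, and mm10 and mm39, with no role or order. About 91% to 93% of values below 300 reads were whole within 0.02 of a read, so no count test was used. A change in total RNA per fibre would not show in such values.

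limma 3.58.1 (R 4.3.3, statmod 1.5.0) was fitted to log2(value + 1) per muscle over all genes with at least 10 in 3 soleus or 2 quadriceps libraries, with trend and robust moderation and Benjamini-Hochberg adjustment. The pseudocount understates changes of low genes. The script was tested on simulated data. The difference between muscles used 4 group means over all 11 libraries, taken as independent, which was not tested.

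Same-numbered soleus libraries deviated together (correlations 0.133, 0.157 and 0.156), each above a limit of 0.1. Myc replicate 4 and control replicate 3, which share no number, also passed it (0.121). No label says that the numbers pair libraries. In quadriceps both pairs had 0.287, which is a single value, since deviations from a mean of 2 libraries mirror each other. No libraries were duplicates.

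Every member is named. Values in every library are given for members called in soleus, the 6 with the smallest p in quadriceps and the 4 for the difference, and from other lists the called genes are named. Members and lists were chosen with earlier results of these data known. Late-life exercise is not analysed here.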

Additional observations from a re-analysis of the deposited data

Results flagged for a closer look

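Among 40 sets of 4 Myc-labelled soleus values, 2 had a library far from the other 3 by Dixon's gap test, where chance gives about 1 in 20. For Timm22, the carrier channel, Myc replicate 3 had 459.4 normalised reads, against 635 to 644 in the other Myc-labelled libraries. For Timm50, the presequence receptor, Myc replicate 4 had 938.2 normalised reads, against 674 to 710 in the others. Neither gene was called in soleus.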

How the results depend on the processing

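Of the 13 members called in soleus, Chchd4, Hspd1, Timm10, Timm8a1, Timm9, Tomm40, Tomm5 and Tomm70a kept their calls in all 16 alternatives. None of these 13 reversed direction in soleus, nor did the 6 members followed in quadriceps or the 4 for the difference. Other members did: of all 40, 33 were positive in soleus as deposited, 31 without control replicate 2 and 37 with library-size scaling. Members called higher numbered 8 to 12 when 1 library was left out (8 without control replicate 1 or 2 or Myc replicate 4), and 8 without Myc replicates 3 and 4, which left 630 genes called, 483 higher and 147 lower. Leaving out 1 library gave 776 to 1015 genes called in all, 659 to 788 higher and 117 to 244 lower. Genes called lower numbered 179 with library-size scaling, beside 1078 higher (900 higher and 284 lower as deposited), and 168 in 1 fit over all 11 libraries.

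With the replicate block, 1216 genes were called in soleus, 882 higher and 334 lower, with 12 members. Tomm22 alone lost its call. In quadriceps, whose libraries share only a number, the replicate block gave 4 genes and no member. For the difference between muscles the block gave 20 genes and no member.

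In quadriceps, 0 genes were called with library-size scaling and 94 in 1 fit over all 11 libraries, 3 of them members. Leaving out 1 library gave 3 to 137 genes and 0 to 1 members, with the lone library assumed to vary like the others. For the difference, 4 genes were called without robust moderation, and 0 to 17 with 1 library left out, none of them members. A pseudocount of 5 and limma-voom on estimated reads left these counts within 1.5 times in all comparisons, and TMM scaling and no filter did so within each muscle (neither was run for the difference). The edgeR test was not run, because too few values were whole reads. Depth limits Tomm6os most, at 11.5 to 36.8 normalised reads in Myc-labelled soleus.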
